A study of Mus musculus with 4 samples.

Results

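The splicing and RNA-binding factor genes were examined for binding of Sp9 in the embryonic basal ganglia. They were all mouse protein-coding genes whose symbol begins with Srsf, Sf3a, Sf3b or Prpf and a number, with Snrp, Hnrnp or U2af, or with Rbm and a number. This gave 107 of the 21900 protein-coding genes of the gene table used here. Each was looked up in 2 lists of Sp9 peaks, and a gene missing from one has no called peak at that stage, although weaker binding may be there. The rule reads only the symbol and no peak value, although it was set with earlier results of these data known. Hnrnpa1l2-ps2, named as a pseudogene but typed as protein-coding in the table, was kept.

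Sp9 belongs to the SP/KLF zinc finger transcription factors, which bind GC-rich sequences such as the GC box. It is made in the ganglionic eminences, which give rise to striatal neurons. Binding was measured by chromatin immunoprecipitation and sequencing (ChIP-seq) with a rabbit antibody to Sp9 in micro-dissected basal ganglia of CD1 mouse embryos that the series describes as wild type, at embryonic day 16.5 (E16.5) and embryonic day 13.5 (E13.5). Each stage had 1 ChIP library and 1 input library without antibody, and the inputs were used here only in so far as the authors called peaks against them. The tissue holds progenitors, neurons and other cells together, so a peak cannot be given to a cell type, and peak lists hold no expression with which the tissue could be checked. Sp9 itself had 3 peaks within 50 kb of its transcription start site (TSS) at E16.5 and 4 at E13.5.

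The deposited lists hold 6022 peaks at E16.5 and 5847 peaks at E13.5. Each peak is described by a signed distance (bp) from the TSS of each gene it was assigned to, on the mm9 build. Chromosome positions, peak heights and read totals are not in the lists, so depth is unknown. With 1 library per stage there is no replicate check, and no difference between the stages could be tested. Intervals below are 95% Wilson intervals over genes and cover counting error only, and neighbouring genes are not independent.

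Splicing removes introns from pre-mRNA in the spliceosome, a machine assembled from small nuclear ribonucleoproteins (snRNPs). The U1 snRNP marks the 5′ splice site, U2AF and the SF3 complex of the U2 snRNP mark the 3′ splice site and the branch point, and the U4/U6 and U5 snRNPs then join for catalysis. SR proteins and hnRNPs bind exons and introns around these sites and raise or lower their use. Many of these genes are expressed in most cells. In the promoter sequences used below, the median content of G and C was 59.7% for the splicing genes, beside 56.3% for all protein-coding genes. In the developing brain, alternative splicing changes widely as progenitors become neurons.

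A peak within 1 kb of the TSS is called a promoter peak here. At E16.5, 26 of the 107 genes had a promoter peak (24.3%, 17.2 to 33.2), where 9.42% of all protein-coding genes had one. At E13.5, 11 had one (10.3%, 5.84 to 17.5), where 4.93% of all protein-coding genes did. Thus both the splicing genes and the whole gene set had more promoter peaks in the E16.5 list than in the E13.5 list, from lists of similar length. Counted over both lists, 27 of the genes had a promoter peak at either stage, where 10.9% of all protein-coding genes had one. Of these, 10 genes had one in both lists, 16 in the E16.5 list only and 1 in the E13.5 list only. Promoter peaks in both lists were thus found for 9.35% of the splicing genes, beside 3.40% of all protein-coding genes, those in the E16.5 list only for 15.0%, beside 6.02%, and those in the E13.5 list only for 0.935%, beside 1.53%. Genes of the table that were missing from the authors' gene set, if any, could receive no peak and would lower these shares. A further 10 genes (9.35%) had only peaks farther than 1 kb away, a class that held 17.0% of all protein-coding genes. The remaining 70 genes (65.4%) had no peak at any distance in either list, as did 72.0% of all protein-coding genes.

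**Figure D1:**
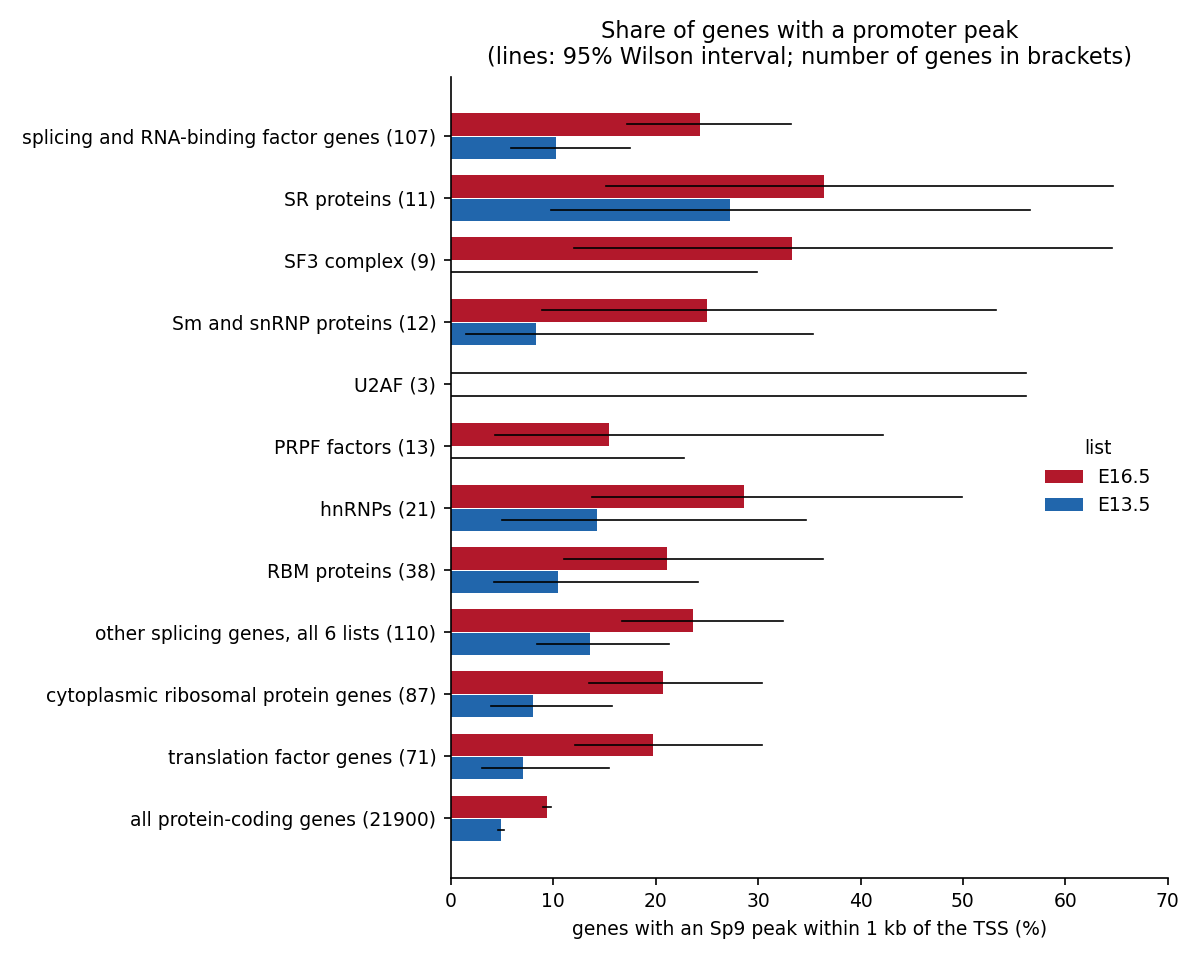
Bars show the percentage of genes with an Sp9 peak within 1 kb of the TSS in the E16.5 and E13.5 lists, and black lines are 95% Wilson intervals. All 107 splicing and RNA-binding factor genes come first (24.3% at E16.5, 10.3% at E13.5), then their subfamilies, other groups of genes and all 21900 protein-coding genes (9.42% and 4.93%), with U2AF at 0 in both lists.

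SR proteins bind exonic enhancers through an RNA recognition motif and recruit the splice site factors through their serine and arginine rich tails. Of the 11 SR protein genes, 4 had a promoter peak at E16.5 and 3 at E13.5. Srsf2, which encodes the factor also called SC35, had a peak 80 bp upstream of its TSS in the E16.5 list and at the same 80 bp in the E13.5 list. The Srsf2 peak also lay 676 bp upstream of the TSS of Mfsd11 in both lists. Srsf7 had a peak 687 bp upstream at E16.5, against 644 bp upstream at E13.5. That peak was nearer to Ttc39d, at 93 bp upstream of its TSS at E16.5 and 136 bp at E13.5, so it lay closer to the promoter of Ttc39d than to that of Srsf7. Srsf1, which encodes the classical SR factor SF2/ASF, had one 161 bp downstream at E16.5 and none within 1 kb at E13.5. A second Srsf1 peak, 15327 bp upstream at E16.5, lay 15332 bp upstream at E13.5, so the farther site was in both lists and the promoter site in the E16.5 list only. Counted as list entries, with the farther site entering once from each list, Srsf1 had 3 peaks within 50 kb, more than any other of the 107 genes. Srsf9 had a peak 47 bp upstream of the TSS in the E16.5 list only. Srsf5 was the 1 gene with a promoter peak in the E13.5 list only, 684 bp downstream of its TSS, while its distant peak, 87681 bp upstream at E16.5 and 87697 bp upstream at E13.5, was in both. Srsf3, Srsf4, Srsf6, Srsf10, Srsf11 and Srsf12 had no peak.

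The SF3 complex is the part of the U2 snRNP that holds the branch point. Of its 9 genes, 3 had a promoter peak at E16.5 (33.3%, 12.1 to 64.6) and 0 at E13.5 (0.0 to 29.9). Sf3b1, which encodes the largest subunit, which lies against the branch point helix, had its peak 36 bp downstream of the TSS. Sf3b4 had its peak 69 bp downstream. Sf3a2 had its peak 283 bp downstream, and the same peak lay 145 bp downstream of the TSS of Plekhj1. None of the 3 U2AF genes, whose products bind the polypyrimidine tract and the 3′ splice site, had a peak in either list.

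The Snrp genes encode the ring of Sm proteins around the spliceosomal RNAs and proteins particular to the U1 and U2 snRNPs. Of 12 genes, 3 had a promoter peak at E16.5 and 1 at E13.5. Snrpd3, which encodes the Sm protein D3, had a peak 138 bp upstream at E16.5, against 15 bp upstream at E13.5. The Snrpd3 peak also lay upstream of Gucd1, at 523 bp at E16.5 and 646 bp at E13.5. Snrpc, which encodes the U1 protein that stabilises pairing with the 5′ splice site, had its peak in the E16.5 list only, 17 bp downstream. Snrpa, which encodes the A protein of U1, had one in the E16.5 list only, 162 bp downstream, also 328 bp downstream of the listed gene BC024978. The other genes of the Sm ring, Snrpb, Snrpd1, Snrpd2, Snrpf and Snrpg, had no peak, and Snrpe had only a distant one, 117768 bp away in the E16.5 list. The PRPF factors, many of which belong to the U4/U6.U5 tri-snRNP, had promoter peaks in 2 of 13 genes at E16.5 and in none at E13.5. The intervals, 4.33% to 42.2% and 0.0% to 22.8%, include the shares of all protein-coding genes, 9.42% and 4.93%. Of the 2 genes, Prpf40b, which encodes a homologue of the yeast U1 factor Prp40 and so no tri-snRNP protein, had its peak 57 bp upstream of the TSS. The tri-snRNP genes Prpf3, Prpf4, Prpf6, Prpf8 and Prpf31 had no peak at any distance, as had 72.0% of all protein-coding genes.

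The hnRNPs package pre-mRNA and often oppose SR proteins at splice sites. Of 21 genes, 6 had a promoter peak at E16.5 and 3 at E13.5. Hnrnph3 had a peak 113 bp upstream at E16.5, against 180 bp upstream at E13.5, in each list shared with Pbld2. Hnrnpul1 had a peak 211 bp upstream at E16.5, against 282 bp upstream at E13.5. Hnrnph1, which encodes a protein that binds runs of G, had promoter peaks in both lists but at different places, 516 bp upstream at E16.5 and 29 bp downstream at E13.5. In the E16.5 list only, Hnrnpa3 had its peak 39 bp downstream. Hnrnpd, which encodes the AU-rich element binding protein AUF1, had one 98 bp upstream in that list, nearer still to 4930524J08Rik at 25 bp upstream. Hnrnpul2 had 2 promoter peaks at E16.5, 45 and 729 bp downstream, the first of them 113 bp upstream of Ttc9c. Hnrnpm had a peak 1491 bp downstream at E16.5, the nearest of all outside the 1 kb limit. Hnrnpa2b1 had a peak 3186 bp upstream at E16.5 that lay 255 bp downstream of the TSS of Cbx3, a heterochromatin protein gene. The abundant hnRNP genes Hnrnpa1, Hnrnpc, Hnrnpk, Hnrnpl and Hnrnpu had no peak in either list.

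The RBM proteins share an RNA recognition motif and little else. Of 38 genes, 8 had a promoter peak at E16.5 and 4 at E13.5, and the 4 at E13.5 were all among the 8. Rbm22, which encodes a component of the catalytic spliceosome that contacts the U6 RNA, had a peak 25 bp upstream at E16.5, against 64 bp upstream at E13.5. Rbm25, a splicing regulator that associates with the U1 snRNP, had one 5 bp downstream at E16.5, against 88 bp upstream at E13.5. Rbm4b, a close relative of the splicing regulator Rbm4, had one 69 bp upstream at E16.5, against 36 bp downstream at E13.5. Rbm48, whose human counterpart acts in the splicing of minor introns, had one 382 bp downstream at E16.5, against 322 bp downstream at E13.5. In the E16.5 list only, Rbm20, known for the splicing of titin in the heart, had a peak 44 bp upstream, while the E13.5 list held one 3909 bp downstream. Rbm15b, whose product belongs to the complex that writes N6-methyladenosine, had one 170 bp upstream and a second 4971 bp upstream, the second at the promoter of Manf, 8 bp from its TSS. Rbm6 had a peak 183 bp downstream and Rbm39, a relative of U2AF, one 604 bp downstream. Rbm4, Rbm5 and Rbm10 had no peak.

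**Figure D2:**
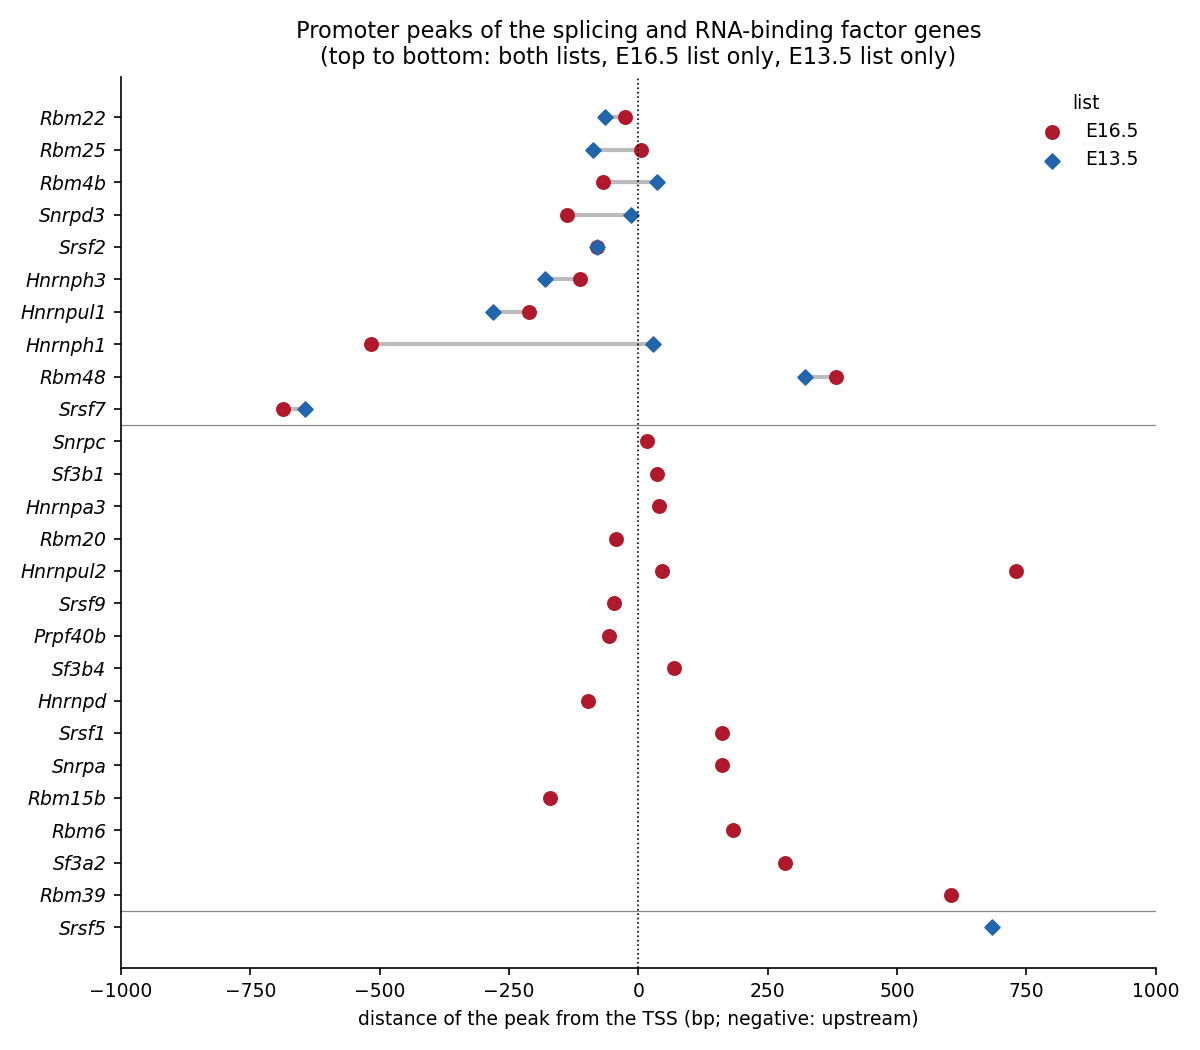
Rows are 26 of the 27 splicing and RNA-binding factor genes with a promoter peak, and points give the distance of each peak from the TSS in base pairs in the E16.5 list (circles) and the E13.5 list (diamonds), with negative values upstream. Grey lines join the 10 genes with a peak in both lists, of which Hnrnph1 is the widest pair at 545 bp.

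The 10 genes with a promoter peak in both lists mostly had it at a similar distance from the TSS. They were picked for a peak within 1 kb of the same TSS at both stages, so most pairs would be close in any case. The same count was not made over all protein-coding genes. Peaks of one gene whose distances in the 2 lists differed by at most 200 bp were taken to recur, and 9 of the 11 promoter peaks at E13.5 recurred. The paired distances differed by 0 bp at Srsf2 and by up to 123 bp at Snrpd3, and the exception among the 10 was Hnrnph1, where they differed by 545 bp. The promoter peaks of the splicing genes lay at a median of 113 bp from the TSS at E16.5 and 88 bp at E13.5, where those of all protein-coding genes lay at 111 and 125.5 bp. Of the 27 promoter peaks of these genes at E16.5, 14 were upstream and 13 downstream of the TSS, while 64.1% of all promoter peaks at E16.5 were upstream. At E13.5, 7 of 11 were upstream, beside 68.5% of all promoter peaks. Just inside the 1 kb limit lay the peaks of Hnrnpul2 at 729 bp, Srsf7 at 687 bp and Srsf5 at 684 bp, and just outside it those of Hnrnpm at 1491 bp, Hnrnpa2b1 at 3186 bp and Rbm20 at 3909 bp.

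Many of these peaks also lay within 1 kb of a second promoter. At E16.5, 10 of the 26 genes with a promoter peak (38.5%) shared it with another listed TSS within 1 kb, where 23.4% of all protein-coding genes with a promoter peak did. At E13.5, 5 of 11 (45.5%) did, beside 23.2%. Srsf2, Srsf7, Sf3a2, Snrpd3, Snrpa, Hnrnph3, Hnrnpd and Hnrnpul2 were among the 10, and Srsf2, Srsf7, Snrpd3 and Hnrnph3 among the 5 at E13.5. For 4 genes at E16.5, Srsf7, Hnrnpd and Sf3a2 among them, the neighbour's TSS was the nearer. The lists alone cannot say which of the paired genes a peak acts on, if either.

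The promoter sequences of 8 of these genes are shown so that promoters with and without a listed peak can be compared. The first 6 are genes with a promoter peak in both lists, taken nearest to the TSS first among those with an entry in the promoter table. The last 2, Srsf10 and Hnrnpa0, are the alphabetically first SR protein and hnRNP genes with no peak. Each runs 5′ to 3′ on the strand of the gene from 250 bases before the start to 50 after it, from RefSeq on GRCm38.p6, which is another build than that of the lists. Capitals mark the GC box, GGGCGG or its complement CCGCCC. The regions are chr12:83635460-83635759 (plus strand) for Rbm25, chr19:4756275-4756574 (plus) for Rbm4b, chr10:75517792-75518091 (plus) for Snrpd3, chr11:116853045-116853344 (minus) for Srsf2, chr10:63023800-63024099 (minus) for Hnrnph3, chr7:25754710-25755009 (minus) for Hnrnpul1, chr4:135855821-135856120 (plus) for Srsf10 and chr13:58128507-58128806 (minus) for Hnrnpa0. Whether the authors' TSS on mm9 is the same start was not checked.
Rbm25: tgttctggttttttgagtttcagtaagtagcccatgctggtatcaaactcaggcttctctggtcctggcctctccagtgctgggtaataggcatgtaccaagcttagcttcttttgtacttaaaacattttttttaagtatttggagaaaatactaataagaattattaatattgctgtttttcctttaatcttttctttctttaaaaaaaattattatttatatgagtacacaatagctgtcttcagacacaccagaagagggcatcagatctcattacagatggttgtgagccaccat
Rbm4b: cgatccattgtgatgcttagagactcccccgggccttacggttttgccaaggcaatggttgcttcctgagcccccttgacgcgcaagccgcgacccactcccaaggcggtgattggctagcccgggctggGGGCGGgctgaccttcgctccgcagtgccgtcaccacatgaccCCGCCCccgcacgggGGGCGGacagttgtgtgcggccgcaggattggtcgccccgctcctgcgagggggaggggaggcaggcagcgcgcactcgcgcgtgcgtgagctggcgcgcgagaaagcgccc
Snrpd3: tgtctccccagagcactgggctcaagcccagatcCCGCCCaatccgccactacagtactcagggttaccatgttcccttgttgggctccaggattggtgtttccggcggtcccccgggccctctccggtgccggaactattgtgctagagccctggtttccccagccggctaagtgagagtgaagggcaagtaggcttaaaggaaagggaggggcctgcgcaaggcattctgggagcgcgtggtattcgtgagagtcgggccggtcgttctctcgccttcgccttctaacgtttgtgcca
Srsf2: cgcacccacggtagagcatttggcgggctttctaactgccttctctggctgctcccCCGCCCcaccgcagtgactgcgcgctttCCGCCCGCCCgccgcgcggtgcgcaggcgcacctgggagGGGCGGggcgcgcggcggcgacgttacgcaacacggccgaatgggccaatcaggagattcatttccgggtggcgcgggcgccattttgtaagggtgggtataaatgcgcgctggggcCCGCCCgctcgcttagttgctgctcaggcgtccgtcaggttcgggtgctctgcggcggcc
Hnrnph3: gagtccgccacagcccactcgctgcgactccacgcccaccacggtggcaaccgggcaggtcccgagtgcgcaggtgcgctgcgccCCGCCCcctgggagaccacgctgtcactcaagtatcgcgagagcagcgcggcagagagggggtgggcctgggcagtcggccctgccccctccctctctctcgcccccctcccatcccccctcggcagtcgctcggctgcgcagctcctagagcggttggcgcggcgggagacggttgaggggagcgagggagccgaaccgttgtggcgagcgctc
Hnrnpul1: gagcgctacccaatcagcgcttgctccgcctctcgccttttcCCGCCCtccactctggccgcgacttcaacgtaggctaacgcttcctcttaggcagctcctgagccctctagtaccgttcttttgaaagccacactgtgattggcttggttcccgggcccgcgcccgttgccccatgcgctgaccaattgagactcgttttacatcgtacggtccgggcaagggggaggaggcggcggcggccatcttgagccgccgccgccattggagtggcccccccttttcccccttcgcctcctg
Srsf10: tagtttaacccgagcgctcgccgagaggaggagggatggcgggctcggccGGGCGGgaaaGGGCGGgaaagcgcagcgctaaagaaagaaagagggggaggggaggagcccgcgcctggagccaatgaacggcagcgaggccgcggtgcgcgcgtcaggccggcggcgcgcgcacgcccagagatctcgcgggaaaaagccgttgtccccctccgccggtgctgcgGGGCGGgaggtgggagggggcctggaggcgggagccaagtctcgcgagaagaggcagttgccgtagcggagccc
Hnrnpa0: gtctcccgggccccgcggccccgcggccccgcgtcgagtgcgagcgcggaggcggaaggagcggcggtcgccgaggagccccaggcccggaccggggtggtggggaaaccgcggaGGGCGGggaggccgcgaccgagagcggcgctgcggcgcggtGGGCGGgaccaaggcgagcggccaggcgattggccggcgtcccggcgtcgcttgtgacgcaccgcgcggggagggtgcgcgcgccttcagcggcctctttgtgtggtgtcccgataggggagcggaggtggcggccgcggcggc

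Srsf2 had the most GC boxes of the 8, at 5, beginning 194, 166, 162, 127 and 10 bases before the start, with the pair at 166 and 162 overlapping. The listed distance of its peak, 80 bp upstream, falls between the match at 127 and the match at 10. Rbm4b had 3 matches, beginning 120, 77 and 62 bases before the start, beside peaks 69 bp upstream at E16.5 and 36 bp downstream at E13.5. Snrpd3, Hnrnph3 and Hnrnpul1 had 1 match each, 216, 165 and 208 bases before the start. The Rbm25 sequence held none and was 35.0% G and C, the lowest of all 90 sequences of the splicing genes. Srsf10 and Hnrnpa0, with no peak, held 3 and 2 matches, so a GC box was also present where no peak was listed.

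Over the whole set, 90 of the 107 genes had an entry in the promoter table. For genes with several starts the most upstream one was read. The sequence window is narrower than the promoter limit, so a promoter peak can lie outside the letters read. By listed distance, 16 of 27 promoter peaks of the splicing genes at E16.5 fell inside the window, and 7 of 11 at E13.5. For all protein-coding genes, 1302 of 2089 and 680 of 1090 did. Srsf1, Srsf5, Srsf7, Sf3a2 and Snrpa held GC boxes, but their promoter peaks lay outside the window. A GC box on either strand was present in 17 of 22 promoters of splicing genes with a promoter peak (77.3%, 56.6 to 89.9) and in 36 of 68 without one (52.9%, 41.2 to 64.3), with overlapping intervals. Among all protein-coding genes it was present in 79.1% of promoters with a peak and 42.2% of those without, and in 46.3% of all 17492 promoters. Of the splicing genes with a peak in both lists, 7 of 9 held a GC box, and of those with one in the E16.5 list only, 9 of 12. The median content of G and C moved with the same split, at 63.0% for splicing genes with a promoter peak and 58.3% for those without, and 65.0% and 55.0% for all protein-coding genes, and its part in the GC box counts was not tested.

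Other short elements were searched on both strands in the same promoters. The CACCC box (CCACCC), which KLF proteins bind, was in 6 of 22 promoters with a peak (27.3%) and 15 of 68 without (22.1%), where over all protein-coding genes it was in 37.8% of promoters with a peak, 32.1% of those without and 32.8% of all. The ETS box (CCGGAAG) was in 5 of 22 (22.7%) and 18 of 68 (26.5%), where over all genes it was in 20.0% with a peak, 10.9% without and 11.9% of all promoters. The CCAAT box was in 10 of 22 (45.5%) and 33 of 68 (48.5%), beside 38.4% with a peak, 39.3% without and 39.2% in all. The TATA box (TATAAA) was in 3 of 22 (13.6%) and 9 of 68 (13.2%), beside 4.83% of promoters with a peak, 14.4% without and 13.3% in all. The homeodomain box (TAATTA), of the kind that DLX proteins bind, was in 0 of 22 and 2 of 68, beside 1.34% of promoters with a peak, 5.11% without and 4.69% in all. A longer GC box (GGGGCGGGG), whose matches all contain the shorter one, was in 6 of 22 (27.3%) and 12 of 68 (17.6%), beside 30.2% of promoters with a peak, 13.7% without and 15.5% in all. A match is only a string of letters in this window, and its absence says nothing of Sp9.

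**Figure D3:**
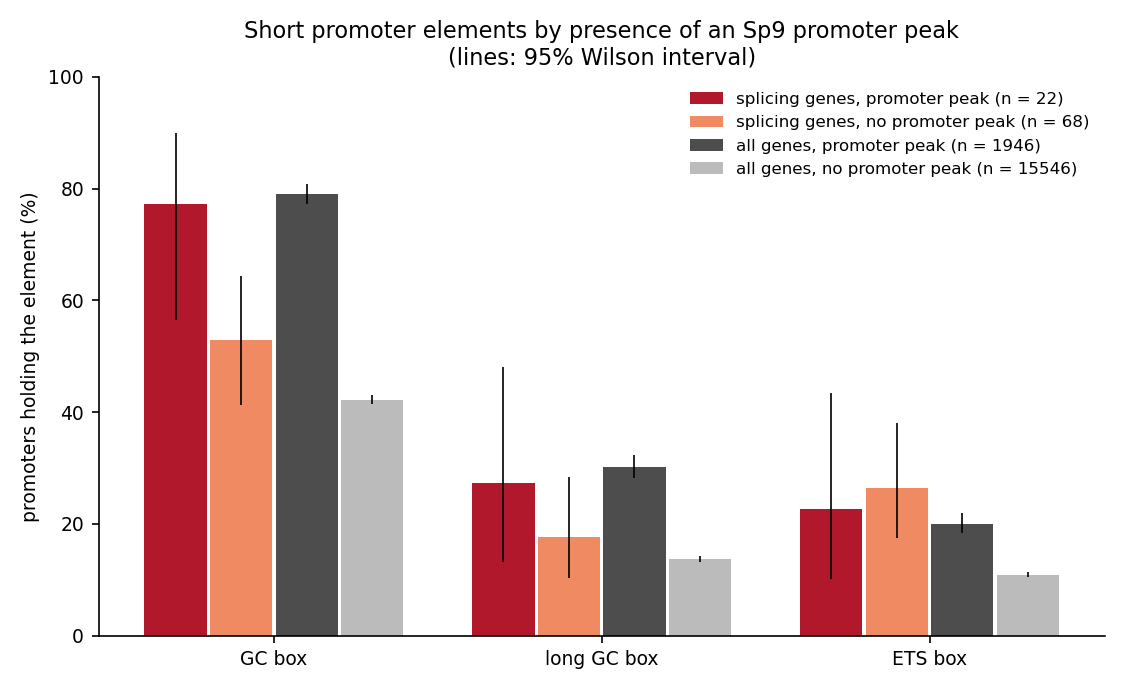
Bars give the percentage of promoters that hold each element, for splicing and RNA-binding factor genes with (n = 22) and without (n = 68) an Sp9 promoter peak and for all protein-coding genes with (n = 1946) and without (n = 15546) one, and black lines are 95% Wilson intervals. The GC box stands at 77.3% and 52.9% in the splicing genes and at 79.1% and 42.2% in all genes.

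Away from promoters the splicing genes had few peaks. Within 50 kb of the TSS, 28 genes had a peak at E16.5 (26.2%, 18.8 to 35.2), where 15.1% of all protein-coding genes had one, and 13 at E13.5 (12.1%, 7.24 to 19.7), where 10.8% did. At any assigned distance, 35 genes had a peak at E16.5 and 20 at E13.5 (32.7% and 18.7%), beside 23.6% and 20.7% of all protein-coding genes. Thus widening the window from 1 kb to 50 kb added 2 genes at E16.5 and 2 at E13.5, and at E13.5 the share of splicing genes no longer exceeded that of all genes at 100 kb (14.0% beside 14.3%) or at any distance. Of the 37 genes with a peak at any distance in either list, 27 had one at the promoter (73.0%), beside 39.2% of the 6125 protein-coding genes with a peak. The same share was 65.5% for cytoplasmic ribosomal protein genes and 53.3% for translation factor genes, so a high share was not found in the splicing genes alone. Beyond 5 kb upstream and 1 kb downstream of a TSS, assignment goes to flanking genes alone, so genes with close neighbours can receive few distant peaks.

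**Figure D4:**
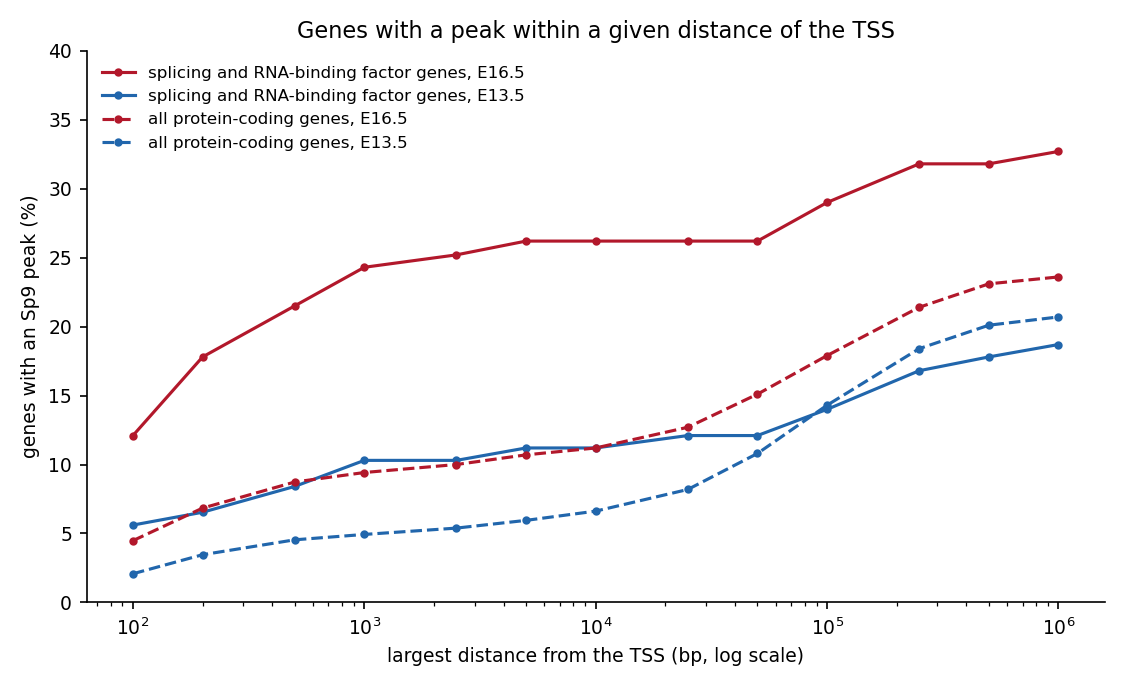
Lines give the percentage of genes with at least 1 Sp9 peak within a given distance of the TSS (log scale), solid for the 107 splicing and RNA-binding factor genes and dashed for all protein-coding genes, in the E16.5 and E13.5 lists. The solid lines climb within the first 1 kb, to 24.3% and 10.3%, and are nearly flat up to 50 kb, at 26.2% and 12.1%, while the dashed lines climb from 9.42% to 15.1% and from 4.93% to 10.8% over that range.

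Distant peaks of the splicing genes were mostly in both lists. Beyond 50 kb, 8 of 13 peaks at E16.5 and 8 of 10 at E13.5 recurred, differing by 13 to 81 bp. Of their promoter peaks, 9 of 27 at E16.5 and 9 of 11 at E13.5 did. The share of 9 of 27 was limited by the unequal counts, since the 27 could be matched to just 11 at the earlier stage. These counts therefore cannot say whether promoter peaks recur less often than distant ones, and no difference was tested. Recurrence was not counted over all protein-coding genes, so none of these shares can be called particular to the splicing genes. Rbm19, a ribosome biogenesis factor gene, had peaks 188098 and 213460 bp downstream of its TSS at E16.5, against 188120 and 213524 bp at E13.5. Both were nearer to the LIM homeobox gene Lhx5, at 127162 and 101800 bp upstream at E16.5. Rbm24, a regulator of muscle splicing, had a peak 62797 bp upstream at E16.5, against 62810 bp at E13.5, and this one was nearer to Rbm24 than to its other gene Stmnd1. Rbm20 had a peak 175921 bp downstream at E16.5, against 175991 bp at E13.5, which was nearer to Pdcd4. The recurring peaks of Hnrnpd, 176755 bp downstream at E16.5 and 176785 bp at E13.5, and of Rbm26, 609443 bp downstream at E16.5 and 609515 bp at E13.5, were also nearer to another gene. Hnrnpa3 had a recurring peak 413135 bp upstream at E16.5 and 413054 bp at E13.5. In the E16.5 list only, Rbm34 had a peak 64339 bp upstream that was nearer to the polarity gene Pard3, and Rbm43 one 165879 bp downstream. In the E13.5 list only, Rbm18 had a peak 66697 bp upstream and Snrpa1 one 114811 bp upstream. In all, 10 of the 13 peaks beyond 50 kb at E16.5 and 8 of the 10 at E13.5 were nearer to the other gene they were assigned to. This too was not counted over all protein-coding genes.

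Other splicing genes, outside the symbol rule, were counted from 6 lists of 110 genes. A promoter peak was present in 26 of them at E16.5 (23.6%, 16.7 to 32.4) and 15 at E13.5 (13.6%, 8.44 to 21.3). Among all protein-coding genes, 9.42% and 4.93% had one, and some of the 6 lists stood near or below these shares. The LSm proteins, relatives of the Sm ring that bind U6 RNA and decaying mRNA, had one in 6 of 10 genes at E16.5 and 3 of 10 at E13.5. Lsm1, Lsm4 and Lsm6 had it in both lists, for Lsm4 26 bp downstream at E16.5 and 42 bp at E13.5, and Lsm2, Lsm3 and Lsm7 in the E16.5 list only. Of 19 other snRNP protein genes, 5 had one at E16.5 and 2 at E13.5. Snrnp70, which encodes the U1 70K protein, had a peak 89 bp upstream at E16.5, against 137 bp at E13.5, and Eftud2, the U5 GTPase gene, one 66 bp upstream at E16.5, against 93 bp at E13.5. Among the 23 branch point, helicase and catalytic step factors, 2 had one at E16.5 (8.7%) and 4 at E13.5 (17.4%), the other order of the lists. Of these, Bud31 had a promoter peak in both lists, Sf1, which encodes the branch point binding protein, in the E16.5 list, and Dhx38, Cwc22 and Cwc27 in the E13.5 list. Cwc22 lies in a dense cluster, with 22 peaks at E16.5 and 57 at E13.5 at any distance, 8 and 36 of them within 50 kb. With so many peaks, a promoter peak there says little, and the order of the lists in this group rests on few genes. Exon junction and SR-related factors had a promoter peak in 1 of 13 genes (Srrm1, 7.69%) at E16.5 and 0 of 13 at E13.5. The SR protein kinases had one in 2 of 7 (Srpk1 and Clk3) at E16.5 and 0 of 7 at E13.5.

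The 38 alternative splicing regulators, many of which act in neurons, had a promoter peak in 10 genes at E16.5 (26.3%) and 6 at E13.5 (15.8%). Rbfox2 had a peak 275 bp downstream at E16.5, against 296 bp at E13.5, and the neuronal ELAV gene Elavl4 one 51 bp upstream at E16.5, against 103 bp at E13.5. Khdrbs1 and Pcbp1 also had promoter peaks in both lists. Ptbp1, the repressor of neuronal exons in progenitors, had one in the E16.5 list only, 63 bp downstream. Only peaks beyond 1 kb were found for 10 of these 38 regulators (26.3%), beside 9.35% of the 107 genes and 17.0% of all protein-coding genes. Khdrbs3 had 7 peaks at E16.5 and 6 at E13.5, none within 50 kb, and Ptbp2, the neuronal paralogue of Ptbp1, had 6 at E16.5 and 8 at E13.5, also none within 50 kb. Celf4 had 10 peaks at E16.5 and 11 at E13.5, of which 1, at E16.5, lay within 50 kb. Cytoplasmic ribosomal protein genes had a promoter peak in 18 of 87 cases at E16.5 (20.7%, 13.5 to 30.4) and 7 at E13.5 (8.05%), and translation factor genes in 14 of 71 at E16.5 (19.7%, 12.1 to 30.4) and 5 at E13.5 (7.04%). These intervals overlap those of the splicing genes at both stages, so no share was shown to be particular to the splicing genes.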

How the data were processed

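Sp9 ChIP and input libraries were made from basal ganglia at 2 stages, per the labels. MACS2 2.1.0, BWA 0.6.2, bcl2fastq 1.8.4, CASAVA 1.8.2 and mm9 stand in the submitters' processing notes, without roles, and no source used here gives the peak threshold. Genes received a peak if it fell in their domain (5000 bp on the upstream side and 1000 bp on the downstream side of the TSS, with extension to at most 1000000 bp and curated domains), per the file headers. The authors deposited text in place of a standard unit: peak numbers with a signed TSS distance. Lettered entries of a peak number were counted as 1 peak.

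Gene names in the lists were matched to a RefSeq table (GRCm38.p6, for names and gene type only): 5330 of 5463 names at E16.5 and 4698 of 4826 at E13.5, with no splicing gene found only through a synonym. Counts, distances and letter searches used Python 3.11.15 with pandas 2.3.3, numpy 2.4.6 and scipy 1.17.1, figures used matplotlib 3.10.9, and parsing was tested on simulated data. Genes in the text were named by class: members with a promoter peak (a few genes are not reported here by name), then neighbours sharing it and the values nearest the limit; others, including the distant peaks, genes without a peak and genes of the 6 other lists, were chosen after their values were seen. Ribosomal genes were those named Rpl or Rps and a number, without the Rps6k kinases. The members, lists and windows were chosen with earlier results of these data known. Alternatives were other promoter limits, windows, matching limits, backgrounds and promoter elements, and the splicing genes without the RBM genes.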

Additional observations from a re-analysis of the deposited data

How the results depend on the processing

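No paired analysis was possible because each stage has 1 library and no replicate numbers. The shares of splicing genes with a promoter peak and with a peak within 50 kb stayed within their 95% intervals under every other promoter limit, window, peak assignment and name rule tried. For promoters they were 20.6% to 25.2% at E16.5 and 8.41% to 10.3% at E13.5. Without the RBM genes, 18 of 69 genes had a promoter peak at E16.5 (26.1%) and 7 at E13.5 (10.1%). Giving each peak to its nearest TSS left 22 genes at E16.5 and 9 at E13.5, and a limit of 500 bp left 23 and 9. Within 500 bp the 1 gene in the E13.5 list only was Hnrnph1 in place of Srsf5. With only genes assigned a peak in either list as the base, the promoter shares were 70.3% at E16.5 and 29.7% at E13.5 for splicing genes, and 33.7% and 17.6% for all protein-coding genes, by construction since fewer genes were counted. Without predicted genes the share of all protein-coding genes was 10.1% at E16.5 and 5.28% at E13.5, for the same reason. The longer GC box was in 27.3% of splicing gene promoters with a peak and 17.6% of those without, and the CACCC box in 27.3% and 22.1%; both are other letters and so give other shares. Reading any listed start in place of the most upstream, added after the data were seen, gave a GC box in 77.3% and 54.4%. Unknown depth and peak height limit every count, since a site near the threshold can be listed at 1 stage and not the other.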

Other observations

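Genes with similar names that the symbol rule leaves out were looked up after their values were seen. Rbmxl1, a retrogene of the RNA-binding motif family, had its peak 11402 bp downstream in both lists. Rbms1 had a peak 165923 bp downstream at E16.5, against 166065 bp at E13.5, and a second, 198675 bp downstream, in the E13.5 list only. Rbms2 had a peak 11966 bp upstream in the E16.5 list only, and Rbmxl2 had one 132427 bp downstream in the E13.5 list only. None of these genes had a promoter peak at either stage.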
